A study of Mus musculus with 3 samples.

Results

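The expression of 9 genes that mark dendritic cells and their subsets was followed in whole mouse spleen bearing islet grafts: Itgax, Flt3 and Zbtb46 for dendritic cells in general, Clec9a and Batf3 for conventional type 1 cells, Clec10a, Esam and Cd209a for conventional type 2 cells, and Siglech for plasmacytoid cells. They were chosen by name as all non-control probes carrying these 9 gene names, which gave 16 of the 55679 probes of the array. Of these, 15 probes, with at least 1 for each of the 9 genes, were well above background on at least 1 array. Sample 1 was spleen taken just after transplantation (day 0), Sample 2 spleen taken on day 2 and Sample 3 spleen taken on day 139, each hybridized to 1 array. All recipients were male C57BL/6J mice made diabetic with streptozotocin (STZ), a toxin of pancreatic beta cells, and were given 25 syngeneic islets in the spleen together with 100 under the kidney capsule. The Sample 3 mice had also lost the kidney graft by nephrectomy on day 100. Day, time since STZ, nephrectomy and array thus differ together in that sample and cannot be told apart. The methods give 1 adult age range for all mice and no age for each harvest, and the number of mice behind each array was not given. No ungrafted spleen and no spleen of a mouse without STZ is among the 3 samples.

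Dendritic cells are the antigen-presenting cells that prime T cells, and the spleen holds its conventional and plasmacytoid forms in the marginal zone, the bridging channels and the T cell areas. Conventional type 1 cells depend on the transcription factor Batf3 and cross-present antigen from dead cells, which their receptor Clec9a recognizes. Type 2 cells include a Notch2-dependent, Esam-bearing form in the spleen and present antigen mainly to CD4+ T cells, and plasmacytoid cells, marked by Siglech, are known for making type I interferon. All of them arise from progenitors that carry the receptor Flt3 and respond to its ligand Flt3l.

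With 1 array per day, no difference has a replicate check and no p-value was computed. Each difference is a log2 ratio of normalized signals, set against 2 yardsticks. The first is the error that the scanner software assigns to the signals, combined over both arrays, which was 0.20 to 0.21 on the log2 scale for the probes that stand for the 9 genes and covers the measurement of a spot only. The second is the Z-score, which scales a log2 ratio to the scatter (SD) of the same comparison among 1000 probes of similar brightness. A probe counted as changed when it passed a ratio of 1.5 with a Z-score of 2, or a ratio of 0.66 with a Z-score of -2. Where a gene had several detected probes, the brightest stood for it. Between 28088 and 30291 probes were well above background per array, fewest in Sample 3, and no gene spot was saturated. Scaling the arrays to the spike-in controls in place of quantile normalization raised the median over all detected probes from -0.02 to 0.35 for day 139 over day 0 and from -0.04 to 0.39 for day 139 over day 2, so every direction given for Sample 3 is relative to the other probes.

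The probe sequences are shown first for Siglech, because its probes did not give the same picture, and then for the 4 genes with the largest differences. Each line holds the last 30 bases of a 60-base probe, 5′ to 3′, with the position that the scanner files give for mm9. Capitals mark bases lying in a run of 16 or more that also occurs in a probe of another gene name.
Siglech, brightest probe (chr7:63034118-63034147, plus strand): tctgtctcAAAGAAAGAAAGAAAGAAAGAA
Siglech, other detected probe (chr7:63033856-63033885, plus strand): ctccaaagttgaagaggctttgacttagtt
Flt3 (chr5:148142576-148142605, minus strand): ttctataaaatcaaacctctcctcgcacag
Esam (chr9:37345825-37345854, plus strand): aaaacctgacttgaaattgatgtttttgtt
Clec10a (chr11:69984284-69984313, plus strand): agcttattgtaggcaacttttgaatgtaac
Cd209a (chr8:3743481-3743510, minus strand): cccaaattttttggaggatttataattttt
The capitals of the brightest Siglech probe are a tandem repeat of the 4 bases GAAA. Over its whole length, 38 of its 60 bases lie in runs shared with 7 probes of 7 other gene names, all of them detected. The other 5 probes shown have no capitals in these bases. Whether the positions are exonic, intronic or untranslated was not analysed here, since no mm9 annotation was at hand.

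None of the 9 genes passed both limits in any of the 3 comparisons. Over all 32108 detected probes, 4.46% passed them for day 2 over day 0, 4.72% for day 139 over day 0 and 4.16% for day 139 over day 2. The median log2 ratio of the 9 genes was -0.07 for day 2 over day 0, 0.01 for day 139 over day 0 and 0.03 for day 139 over day 2, beside 0.01, -0.02 and -0.04 over all detected probes. On the ratio limit alone, Esam and Cd209a were lower on day 2 than on day 0, that is 2 of 9 genes where 10.4% of all detected probes were. None passed it in either direction for day 139 over day 0, where 27.5% of all probes did. Cd209a alone passed it for day 139 over day 2, as 1 of 9 genes higher where 12.4% of all probes were. In this bulk tissue, fewer cells of a type and less RNA per cell cannot be told apart.

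**Figure D1:**
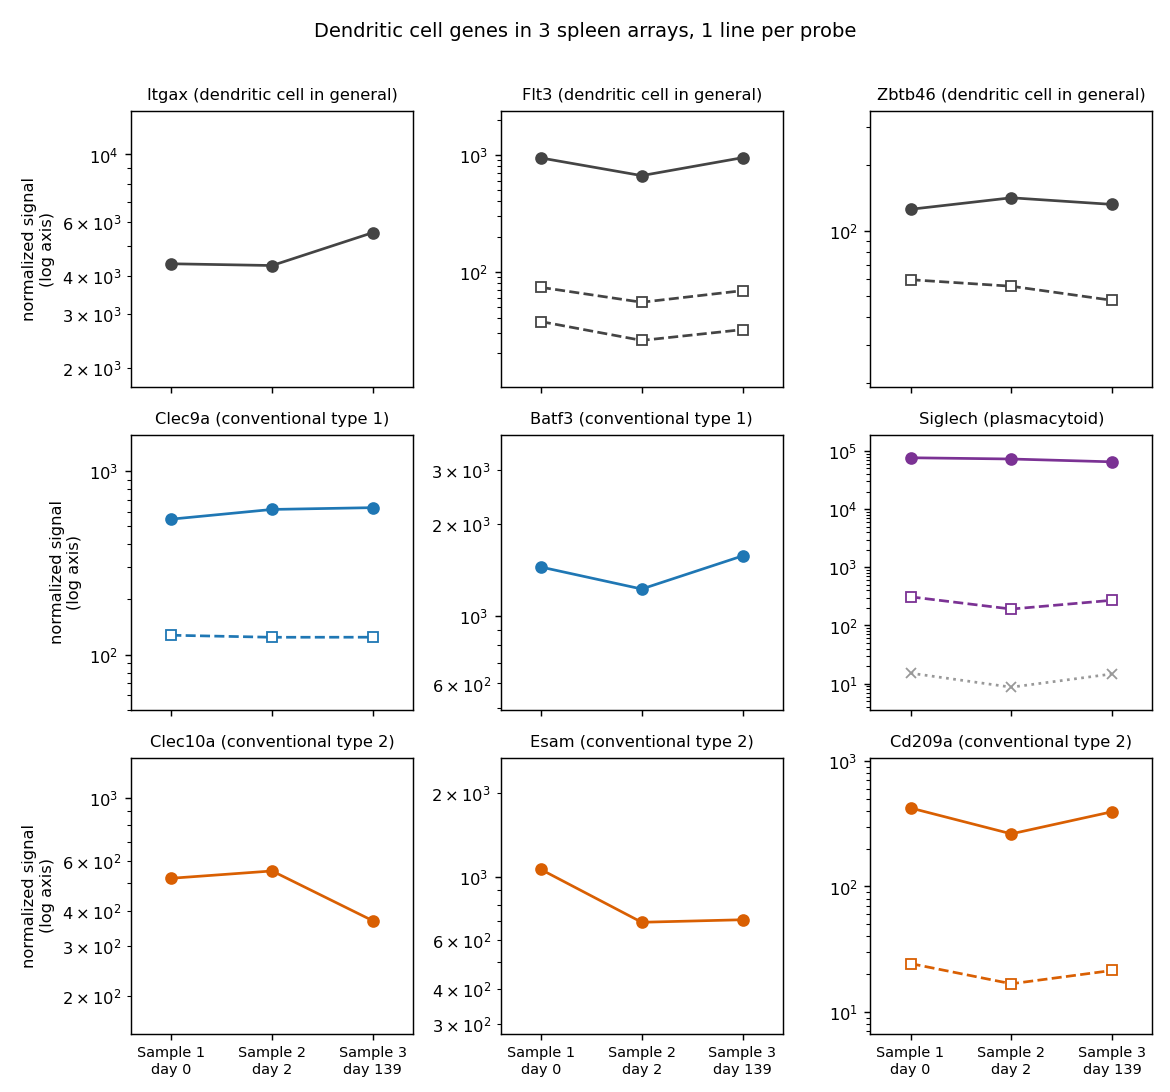
Normalized signal of each probe of the 9 genes in Samples 1 to 3 on log axes, each panel with its own range; filled circles are the probe that stands for the gene, open squares its other detected probes, and grey crosses a Siglech probe not well above background on any array. All 3 Flt3 probes and both Cd209a probes are lowest in Sample 2, Esam is highest in Sample 1, and the brightest Siglech probe is nearly level where its other detected probe dips in Sample 2.

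Among the genes of dendritic cells in general, Flt3 was lowest on day 2, Itgax was highest on day 139 and Zbtb46 was nearly level. Flt3, the growth factor receptor of dendritic cells and their progenitors, had a signal of 942 on day 0, 665 on day 2 and 947 on day 139. Its log2 ratio was -0.50 for day 2 over day 0 (ratio 0.706, Z-score -1.32), 0.51 for day 139 over day 2 and 0.01 for day 139 over day 0. The first pair of differences exceeded 2 scanner errors, and none reached the limits. The other 2 Flt3 probes gave signals of 73.6, 54.8 and 68.9, and of 37.5, 25.8 and 32.0, with log2 ratios of -0.42 and -0.54 for day 2 over day 0. All 3 probes were thus lower in Sample 2 than in both other samples.

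Itgax encodes CD11c, an integrin chain that macrophages and some lymphocytes also carry. Its signal was 4382 on day 0, 4325 on day 2 and 5545 on day 139. Samples 1 and 2 differed by a log2 ratio of -0.02, well within the scanner error. Sample 3 was higher than Sample 1 by 0.34 and higher than Sample 2 by 0.36, both under 2 scanner errors, with Z-scores of 0.59 and 0.61.

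Zbtb46 encodes a transcription factor of conventional dendritic cells that endothelial cells also use. Its brightest probe had signals of 126 on day 0, 142 on day 2 and 132 on day 139, and its other probe 59.7, 55.7 and 48.0. The log2 ratios for day 139 over day 0 were 0.07 and -0.31, of opposite sign. All 6 differences over these 2 probes lay within 2 scanner errors, so the order of the 3 samples is not resolved for this gene.

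Neither type 1 gene differed between samples by 2 scanner errors. Clec9a, the receptor for exposed actin filaments of dead cells, had signals of 548 on day 0, 619 on day 2 and 633 on day 139, with log2 ratios of 0.18 for day 2 over day 0, 0.21 for day 139 over day 0 and 0.03 for day 139 over day 2. Its other probe had signals of 128, 124 and 125, and no log2 ratio larger in size than 0.04. Both probes thus held nearly the same value on all days. Batf3, the transcription factor that type 1 cells require, had signals of 1446 on day 0, 1225 on day 2 and 1573 on day 139. It was lowest in Sample 2, at a log2 ratio of -0.24 to Sample 1 and with Sample 3 higher by 0.36.

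The type 2 genes had the largest differences of the 9 genes when each is taken by its brightest probe, and the 3 genes followed 3 different courses. Clec10a, a galactose-binding C-type lectin that macrophages also carry, had signals of 521 on day 0, 553 on day 2 and 369 on day 139. Samples 1 and 2 were alike within the scanner error, at a log2 ratio of 0.09, and Sample 3 was the low one, at -0.50 to Sample 1 and -0.58 to Sample 2. Its ratio of 0.667 for day 139 over day 2 lay just short of the 0.66 limit, with a Z-score of -0.92.

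Esam, an adhesion molecule of the junctions between endothelial cells that also marks the Notch2-dependent type 2 cells of the spleen, had signals of 1067 on day 0, 692 on day 2 and 706 on day 139. Sample 1 was the high one. The log2 ratio was -0.63 for day 2 over day 0 (ratio 0.648, Z-score -1.60) and -0.60 for day 139 over day 0 (ratio 0.662, just short of the limit, Z-score -1.09), and Samples 2 and 3 differed by 0.03. Its Z-score on day 2 was the largest in size of the 9 genes. It became -2.01 when the spread was taken as a scaled median absolute deviation, which put Esam past both limits. The share of all detected probes past both limits with that spread is not at hand, so this call has no background beside it.

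Cd209a, a C-type lectin of the DC-SIGN family, had signals of 422 on day 0, 262 on day 2 and 394 on day 139. Sample 2 was the low one, at a log2 ratio of -0.68 to Sample 1 (ratio 0.622, Z-score -1.22), and Sample 3 was higher than Sample 2 by 0.59 (Z-score 0.84), its ratio only just past 1.5. Samples 1 and 3 differed by -0.10, within the scanner error. A dimmer probe had signals of 24.3, 16.8 and 21.4, with log2 ratios of -0.53 and 0.35 for the same pair of comparisons and errors of 0.38 and 0.43, so that it had the same order of samples without resolving it.

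**Figure D2:**
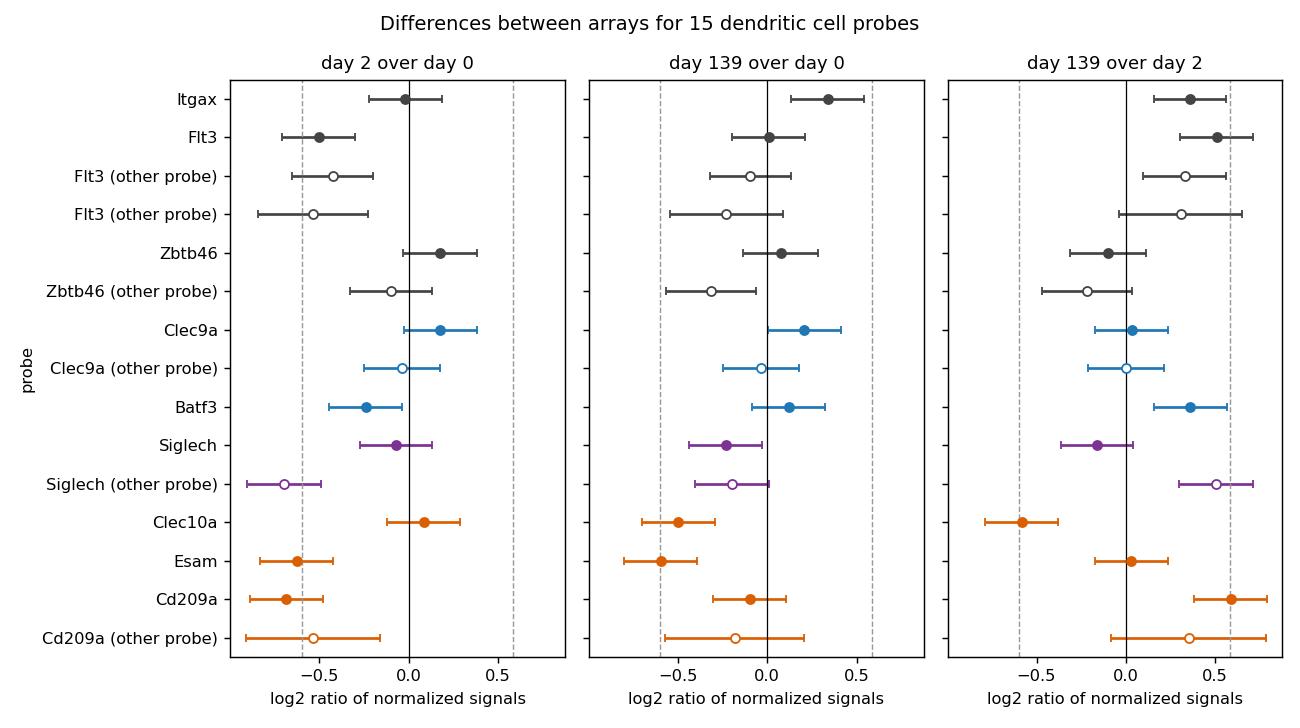
Log2 ratio of normalized signals for the 15 detected probes in the 3 comparisons (grey, dendritic cells in general; blue, type 1; purple, plasmacytoid; orange, type 2); filled points stand for the gene, open points are its other probes, bars are 1 scanner error to each side, and dashed lines are the ratio limits of 1.5 and 0.66. For day 2 over day 0, Esam, Cd209a and the other Siglech probe lie past the lower line, and for day 139 over day 0 no filled point does.

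For Siglech, a sialic acid-binding receptor of plasmacytoid cells, the answer depended on the probe. The brightest probe had signals of 76280 on day 0, 72623 on day 2 and 64935 on day 139, and log2 ratios of -0.07, -0.23 and -0.16 for day 2 over day 0, day 139 over day 0 and day 139 over day 2. The other detected probe, which shares no run of 16 bases with a probe of another gene, had signals of 311, 191 and 271. It was lower on day 2 than on day 0, at a log2 ratio of -0.70 (ratio 0.616, Z-score -1.46), and higher on day 139 than on day 2 by 0.50, both over 2 scanner errors. For day 139 over day 2 the 2 probes therefore had opposite signs. The third probe, at 15.1, 8.70 and 14.7, was not well above background on any array.

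The brightest probe is the one with the GAAA repeat shown above. The 7 probes of other gene names that share its runs had a median log2 ratio of 0.10 for day 2 over day 0, -0.41 for day 139 over day 0 and -0.42 for day 139 over day 2, and 0 of 7 were higher on day 139 than on day 2. The part of the shared sequence in its signal was not tested. Taking the other probe for Siglech moved the median of the 9 genes to -0.24 for day 2 over day 0 and to 0.36 for day 139 over day 2, left it at 0.01 for day 139 over day 0, and brought the genes past the ratio limit on day 2 to 3 of 9. It put no gene past both limits.

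The subsets were compared by subtracting the log2 ratio of one gene from that of another, for 16 pairs of genes or Siglech probes from different subsets in the 3 comparisons. Of these 48 differences, 13 exceeded 2 scanner errors and 0 exceeded 2 probe spreads, the spread being the SD of log2 ratios among probes of like signal, combined over the pair. The largest came to 1.32 spreads. The subsets are therefore not told apart beyond the scatter among probes on these arrays.

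Within that scatter, the type 1 and type 2 genes were ordered the same way in all their pairs for day 139 over day 0. Clec9a and Batf3 lay above Clec10a, Esam and Cd209a in 6 of 6 pairs, by 0.22 to 0.80 on the log2 scale, and by over 2 scanner errors in 4. These 6 pairs rest on 5 genes and the same 2 arrays, so they are not 6 separate observations. The longer lists given below ran the other way for day 139 over day 0. Their median was 0.31 for type 2, with 13 of 16 genes above 0, and 0.13 for type 1, with 8 of 15 above 0. For day 2 over day 0 the type 1 genes were above in 5 of 6 pairs, with differences from -0.33 to 0.86, and for day 139 over day 2 in 4 of 6, from -0.55 to 0.94. Type 1 genes were above the Siglech probes in 4 of 4 pairs for day 139 over day 0, by 0.32 to 0.44, none of them over 2 scanner errors. Differences between type 2 genes and Siglech ran in both directions in each comparison.

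Further genes of each subset were taken from lists that leave out the 9 genes. The calls in these lists stand beside the shares over all detected probes. Those were 4.46% for day 2 over day 0, 4.72% for day 139 over day 0 and 4.16% for day 139 over day 2. None of the 15 measured type 1 genes passed both limits in any comparison, but some did under other settings. For day 2 over day 0, 1 was higher with normexp background correction and 1 lower with a Z-score window of 250 probes. The scaled median absolute deviation gave 1 higher and 1 lower there, 2 higher for day 139 over day 0 and 3 higher for day 139 over day 2. Spike-in scaling gave 1 and 3 higher for this last pair of comparisons. No share over all detected probes is at hand for these other settings. The median log2 ratio of the list was -0.15 for day 2 over day 0 with 3 of 15 above 0. It was 0.13 for day 139 over day 0 with 8 above 0, and 0.29 for day 139 over day 2 with 10 above 0. The last of these was 0.11 with normexp background correction. The chemokine receptor Xcr1 had signals of 33.4, 45.5 and 57.6 on days 0, 2 and 139. Tlr12, a receptor for parasite profilin, had signals of 742, 1392 and 1467 and came nearest the limits for day 2 over day 0, at a log2 ratio of 0.91 and a Z-score of 1.95. Naaa, a lysosomal amidase, had signals of 4763, 2768 and 3848 and was the lowest for that comparison, at -0.78.

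Of the 16 measured type 2 genes, Cx3cr1 and Irf4 passed both limits. For day 139 over day 0, 3 genes were higher with spike-in scaling, and 3 higher and 2 lower with the scaled median absolute deviation. For day 139 over day 2 these counts were 2 higher, and 2 higher and 1 lower. No share over all detected probes is at hand for these settings. The median of the list was -0.06 for day 2 over day 0, 0.31 for day 139 over day 0 and 0.29 for day 139 over day 2, with 6, 13 and 13 genes above 0. Cx3cr1, the fractalkine receptor, had signals of 1024 on day 0, 2440 on day 2 and 2933 on day 139. It was higher than on day 0 by a log2 ratio of 1.25 on day 2 (Z-score 3.15) and 1.52 on day 139 (Z-score 2.66), with both later samples well above the first. Its 2 probes gave 1.25 and 1.83 for day 2 over day 0. Which cells of the spleen gave the Cx3cr1 signal was not tested. Irf4, a transcription factor of type 2 cells and of activated B and plasma cells, had signals of 475, 436 and 1139, with Sample 3 higher than Sample 1 by 1.26 and than Sample 2 by 1.39 (Z-scores 2.18 and 2.42).

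At the other end of the type 2 list, the lectin gene Clec4a2 had signals of 261, 257 and 120 and the monocyte chemokine receptor Ccr2 776, 636 and 419. Both were lowest on day 139 without reaching the limits, as Clec10a was. The scaled median absolute deviation put Clec4a2 and Ccr2 past the limits for day 139 over day 0. Clec4a4, which encodes the DCIR2 antigen of the Esam-bearing cells, had signals of 112, 70.9 and 140. It was lowest on day 2, at a log2 ratio of -0.66, with Sample 3 higher by 0.98, while Notch2 differed by -0.25, 0.13 and 0.38 over the 3 comparisons on its brighter probe and by 0.17, 0.07 and -0.10 on its other one. Mgl2, a lectin gene closely related to Clec10a, had signals of 38475, 54964 and 60834. It was higher on day 139 than on both earlier days, where Clec10a was lower. For day 2 over day 0 both were above 0, at 0.51 for Mgl2 and 0.09 for Clec10a.

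The 16 measured plasmacytoid genes had medians of 0.02 for day 2 over day 0, 0.37 for day 139 over day 0 and 0.19 for day 139 over day 2. The first of these became -0.05 with spike-in scaling, beside -0.04 over all detected probes. Lag3, a checkpoint receptor that activated T cells also carry, and Klra17, a lectin-like receptor gene, were the only ones past both limits, for day 139 over day 2. Lag3 had signals of 263, 166 and 442 on days 0, 2 and 139, a log2 ratio of 1.41 between the last pair (Z-score 2.16). Klra17 had signals of 25.8, 11.7 and 39.9 and was not well above background on day 2, so that day 139 was at least 2.84-fold higher. Its call was lost with normexp background correction, at 0.50, and with a higher floor, at 1.51.

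Several plasmacytoid genes had a pair of probes that did not give the same values. Cyb561a3, a cytochrome gene, had signals of 3112, 1892 and 4578 by its brighter probe, with log2 ratios of -0.72 for day 2 over day 0 and 1.27 for day 139 over day 2 (Z-score 1.98), whereas its other probe gave -0.05 and 0.11. Tcf4, the transcription factor that sets the lineage, had log2 ratios of 0.09, 0.39 and 0.30 over the 3 comparisons by its brighter probe and -0.21, -0.01 and 0.21 by the other. Bst2, an interferon-induced surface antigen used to identify these cells, had 0.37, 0.38 and 0.01 on its 1 probe, and Irf7, which drives interferon genes, -0.37, -0.22 and 0.15. Pacsin1 had signals of 7124, 9571 and 11661 by its brighter probe, and Smim5 683, 646 and 343. They lay at opposite ends of the list for day 139 over day 0. The 2 Pacsin1 probes gave 0.71 and 1.42 for that comparison and 0.28 and 1.20 for day 139 over day 2. The 2 Ptprs probes had opposite signs for day 139 over day 0, at 0.29 and -0.67. Several probes that stand for list genes share runs of 16 or more bases with probes of other gene names. Among them, those of Klra17 and Cx3cr1 share with 1 probe each and that of Clec4a4 with 2. The probes of the maturation genes Il15ra and Tnfrsf9 share with 84 and 74, and that of the macrophage marker Itgam with 39.

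**Figure D3:**
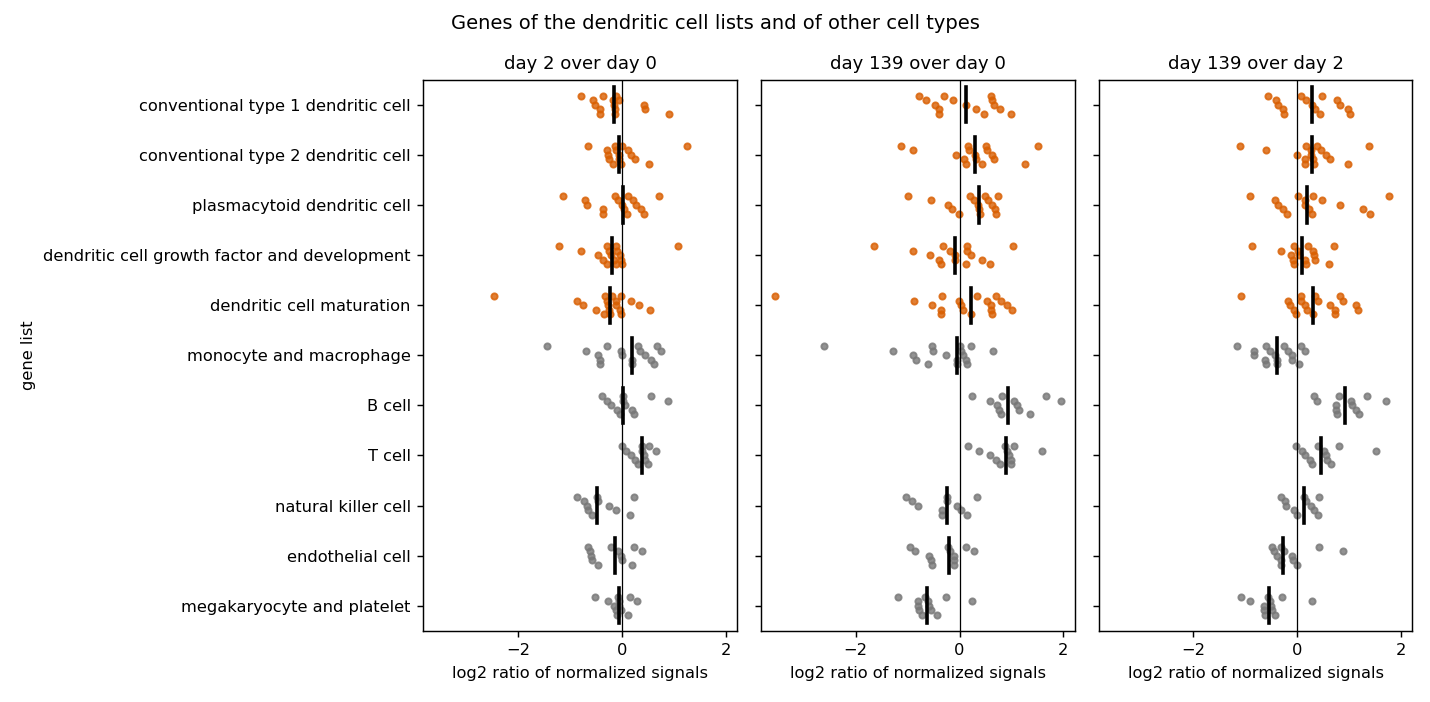
Log2 ratio of normalized signals for each measured gene of 11 lists in the 3 comparisons; orange points are the dendritic cell lists, grey points lists of other cell types, and black bars the list medians. The dendritic cell medians lie between -0.22 and 0.37 in all 3 comparisons, while the B cell medians are 0.94 and 0.92 for day 139 over day 0 and over day 2.

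The growth factor and development list was the one in which a ligand and its receptor can be set side by side. Flt3l, the ligand of Flt3, had signals of 1077 on day 0, 2291 on day 2 and 2197 on day 139, with both later samples above the first. Its log2 ratio was 1.09 for day 2 over day 0 (Z-score 2.77), past both limits, and 1.03 for day 139 over day 0 (Z-score 1.89), short of them. Its 2 probes gave 0.61 and 1.09 for day 2 over day 0. Over the same pair of arrays the Flt3 probes were lower, at -0.50, -0.42 and -0.54.

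Csf2rb, the shared signalling chain of the GM-CSF, IL-3 and IL-5 receptors, had signals of 4254, 1829 and 2289 and was lower on day 2 than on day 0 by both limits, at a log2 ratio of -1.22 (Z-score -3.23; its probes ran from -1.22 to -0.74). Csf2ra, the GM-CSF-specific chain, differed by -0.09. Nfil3, a transcription factor upstream of type 1 cells and of natural killer cells, had signals of 806, 467 and 256 and was past both limits for day 139 over day 0, at -1.65 (Z-score -2.62). Of the 16 measured genes of this list, 14 were below 0 for day 2 over day 0, most of them by little, with a median of -0.18. The medians for day 139 over day 0 and over day 2 were -0.09 and 0.09, and the first became 0.31 with spike-in scaling, where the median of all probes was 0.35.

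Among 19 measured maturation genes, Ccl17 stood alone past both limits. This chemokine of mature dendritic cells attracts CCR4-bearing T cells. Its signals were 213 on day 0, 38.6 on day 2 and 18.2 on day 139, the last not well above background. It was lower on day 2 by a log2 ratio of -2.46 (Z-score -3.71), and at least 11.7-fold lower on day 139 than on day 0. With normexp background correction these log2 ratios were -1.45 and -1.78, still past both limits. Ccl22, the companion ligand of the same receptor, was not well above background on any array. The median of the list was -0.22 for day 2 over day 0, with 16 of 19 genes below 0, and 0.21 and 0.30 for day 139 over day 0 and over day 2. Ccr7, which guides mature cells to T cell areas, had log2 ratios of -0.28, 0.61 and 0.89 over the 3 comparisons. Cd40, Cd274 and Pdcd1lg2, a costimulatory receptor and the ligands of PD-1, were higher on day 139 than on day 2 by 0.82, 1.16 and 1.13, short of the Z-score limit.

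**Figure D4:**
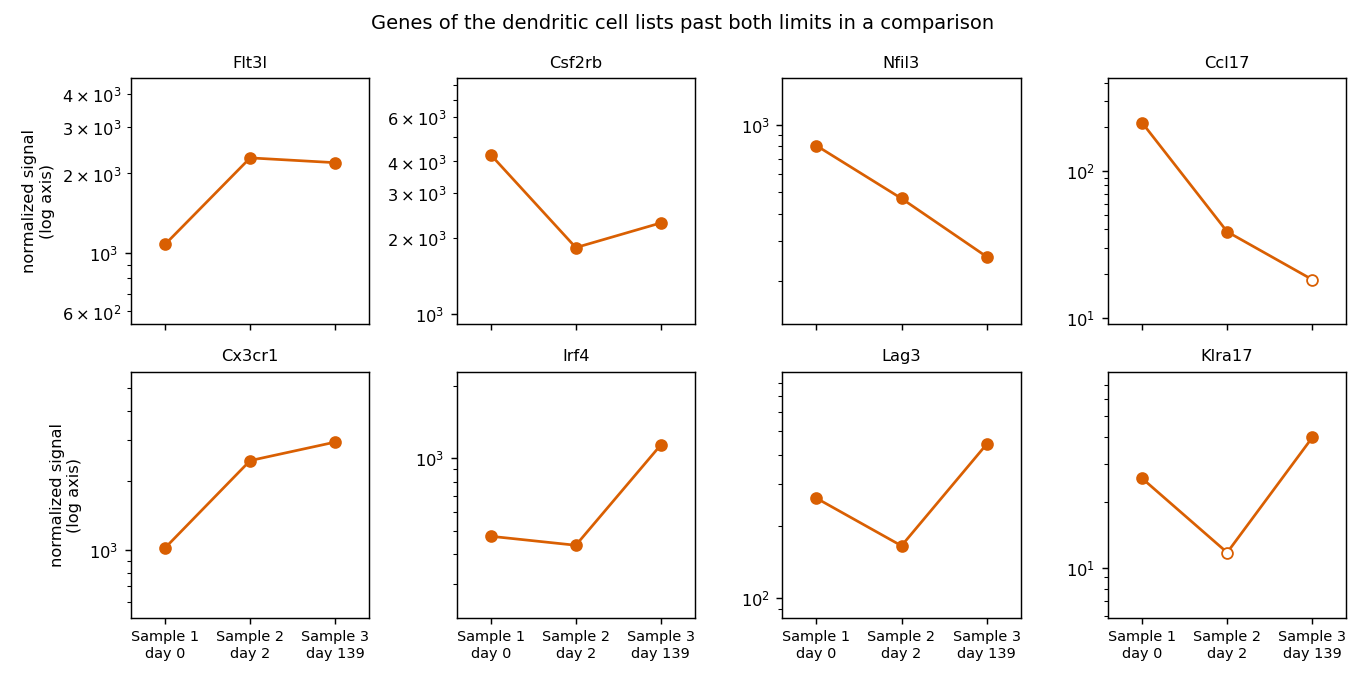
Normalized signal, on log axes with a range of its own in each panel, of the 8 genes of the dendritic cell lists that passed both limits in a comparison. Over all detected probes, 4.16% to 4.72% passed both limits in a comparison. Open circles are signals not well above background. Flt3l and Cx3cr1 are higher on both later days, Csf2rb is lowest on day 2, Nfil3 and Ccl17 are lower on each later day, and Irf4, Lag3 and Klra17 are highest on day 139.

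Markers of other cell types also differed between the arrays, and several of the dendritic cell genes are used by those cells. All 12 B cell markers were higher on day 139 than on both earlier days, with medians of 0.94 and 0.92 and summed signals of 58699 on day 0, 58510 on day 2 and 110678 on day 139, and none was below background. Cd79a, Cd79b, Blk and Fcer2a passed both limits for day 139 over day 0, and Cd79b, Ms4a1, Cd22 and Blk for day 139 over day 2. Several genes of the dendritic cell lists are also expressed by B cells, among them Irf4, Irf8, Btla, Ly6d, Cd40, Cd83, Ccr7, Bcl11a, Cd24a, Cd80, Tlr9 and Spi1. Their log2 ratios for day 139 over day 0 ran from -0.52 for Cd80 to 1.26 for Irf4, and the part of B cell RNA in them was not tested. The 12 T cell markers had medians of 0.39, 0.90 and 0.45 over the 3 comparisons and summed signals of 15812, 21036 and 28544, with 0 past both limits. For day 139 over day 0, 7 of them were past both limits with spike-in scaling and 8 with the scaled median absolute deviation. No share over all detected probes is at hand for these settings, and spike-in scaling raised the median of all detected probes to 0.35.

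The 12 endothelial markers, which bear on Esam and Zbtb46, had summed signals of 46067, 45368 and 38387 on days 0, 2 and 139. Their medians were -0.14 for day 2 over day 0, -0.20 for day 139 over day 0 and -0.28 for day 139 over day 2. With spike-in scaling the last pair became 0.19 and 0.09, beside 0.35 and 0.39 over all detected probes. For day 2 over day 0, 9 of the 12 were below 0, and they ran from -0.65 for Tek, an angiopoietin receptor, to 0.39 for Kdr, a VEGF receptor. Cdh5, the cadherin of endothelial junctions, had signals of 1025, 687 and 681, and Kdr 4769, 6236 and 5204. The 12 megakaryocyte and platelet markers had summed signals of 39771, 42657 and 26169 and medians of -0.06, -0.63 and -0.54, with Pf4 lower on day 139 than on day 2 past both limits. All markers of both lists were detected, and the part of these cells in the Esam values was not tested.

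The 17 monocyte and macrophage markers, which bear on Clec10a, Itgax and Cx3cr1, had medians of 0.19, -0.05 and -0.40 and summed signals of 134281, 140074 and 118765. The median for day 139 over day 0 became 0.33 with spike-in scaling, beside 0.35 over all detected probes. Cd14 was below both limits for day 2 over day 0 at -1.45 and for day 139 over day 0 at -2.61, and Marco for day 139 over day 0 at -1.28. The 11 natural killer markers had medians of -0.47, -0.24 and 0.14 and summed signals of 17452, 13103 and 12170, none past both limits. Spike-in scaling changed -0.24 to 0.09, beside 0.35 over all detected probes. With the scaled median absolute deviation, 1 marker was lower for day 2 over day 0 and 3 for day 139 over day 0. The window of 250 probes gave 1 lower for day 2 over day 0. No share over all detected probes is at hand for these settings. The part of these cells in the Clec10a, Itgax and Cx3cr1 values was not tested either.

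Genes whose signals followed the same course as a dendritic cell gene were easy to find, since 3 arrays leave only 2 differences to match. Over 14166 named genes well above background on all arrays, with likeness taken as the root mean square distance between log2 signals centred on their mean over the 3 samples, the nearest to Itgax were Nt5c3l, Sox17 and Lyrm2, at up to 0.00515, with 1593 genes within 0.1. The nearest to Clec9a were Yipf3, Scyl2 and 4930506M07Rik, with 2380 genes within 0.1, and the nearest to Clec10a were Homer3, Ccdc57 and Gm9895, with 810. March2, Nodal and Myh9 lay nearest to the brightest Siglech probe, with 2336 within 0.1, and Cnot7, Ube2d1 and Flrt3 nearest to the other one, with 276.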

How the data were processed

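Total RNA of islet graft-bearing spleens from SP25+KC100 recipients was hybridized to 3 one-color 60K mouse arrays of 1 slide, 1 array per day. The kits named for RNA purification and labeling differ between the labels and the paper. The authors deposited the scanner output, which holds the background-subtracted intensity of each spot on a linear scale before normalization between arrays. The file headers name Feature Extraction 10.7.1.1 and mm9, whereas the submitters' processing notes name version 9.5.1.1. The authors also deposited a table of processed intensity values per probe, used as an alternative.

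After removal of control spots and of spots marked as outliers, the spots of a probe were averaged. The 55679 probes were then quantile normalized across arrays, floored at 1 and log2-transformed. Detected probes (32108) were well above background on at least 1 array. For the 16 probes of the 9 genes the result differed from the deposited values by at most 0.0012 on the log2 scale. Replicate spots on an array had a median SD of 0.06 to 0.09. With 1 array per day, the number of arrays limits the precision. Where a probe was not well above background on 1 array, the fold is a bound, computed with that array's lowest well-above-background signal or the probe's own, whichever is higher.

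The genes named are the 9 members, the list genes past both limits, genes at the ends of each dendritic cell list (the 2 highest and 2 lowest), and the 3 genes most like Itgax, Clec9a, Clec10a and Siglech; others were named for their function. The 11 lists were written from general knowledge. The members, lists and rules were chosen with earlier results of these data known. Array names were matched to RefSeq (GRCm38.p6, names only), where 22290 of 34797 names and 9 of 9 members were found. Ifi205 and Ly6c2 were not matched on the array, and Ly75, Clec12a, Runx2, Csf2 and Ccl22 were not detected.

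Alternatives were normexp correction of the background (offset 50, with limma 3.58.1 under R 4.3.3), scaling each array to 7 spike-in controls or to its 75th percentile, the deposited values, a higher floor, detection on all arrays, outlier spots kept, the median over the probes of a gene, a window of 250 probes, a scaled median absolute deviation and the ratio limit alone. Calculations used Python 3.11.15, numpy 2.4.6 and pandas 2.3.3, and figures matplotlib 3.10.9. The calls were tested on simulated data only with shifts larger than any difference of the member genes. That test therefore does not show whether differences of their size would be called.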

Additional observations from a re-analysis of the deposited data

How the results depend on the processing

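No paired analysis was possible because each day has 1 array. The number of the 9 genes past the limits stayed at 0 in all 3 comparisons under 9 of 11 alternative settings. With a scaled median absolute deviation it became 1 for day 2 over day 0 (Esam), with no share over all detected probes at hand. With the ratio limit alone it became 2 for day 2 over day 0 and 1 for day 139 over day 2. With spike-in scaling, 4 log2 ratios changed sign: Cd209a and Siglech for day 139 over day 0, to 0.30 and 0.27, and Siglech and Zbtb46 for day 139 over day 2, to 0.37 and 0.32. The medians over all detected probes with that scaling were 0.35 for day 139 over day 0 and 0.39 for day 139 over day 2. Siglech for day 139 over day 2 was 0.17 with the median over its probes and 0.50 with the other probe, an alternative chosen after seeing the data. Among list genes past the limits, with the alternatives applied after seeing the data, Klra17 lost its call with normexp and with the higher floor, Marco and Pf4 with spike-in scaling (-0.89 and -0.72), and Cd22 and Pf4 with the window of 250 probes. Ccl17 and Klra17 were not measured when detection on all 3 arrays was required, and with normexp the log2 ratio of Ccl17 shrank from -2.46 to -1.45 for day 2 over day 0 and from -3.55 to -1.78 for day 139 over day 0. Calls were also gained with spike-in scaling and with the scaled median absolute deviation, without a share over all detected probes at hand. For day 139 over day 0, those in the B cell list rose from 4 to 9 and 10. In the T cell list they rose from 0 to 7 and 8. For day 139 over day 2, the maturation and plasmacytoid lists each had 4 higher genes with either setting. Lower calls were gained with the scaled median absolute deviation too. For day 139 over day 0, they rose from 0 to 3 in the natural killer and the megakaryocyte and platelet lists. The type 2 list then had 2. For day 139 over day 2, lower calls in the monocyte and macrophage list rose from 0 to 3. Dim probes limit what can be read for Klra17, Ccl17 on day 139, and the dimmer Cd209a and Flt3 probes.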
